A study of Mus musculus with 2 samples.

Results

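The MHC class I antigen presentation genes described here were 10 genes fixed by name: the heavy chains H2-K1 and H2-D1, their light chain B2m, the peptide transporter subunits Tap1 and Tap2, the loading factor Tapbp, the immunoproteasome subunits Psmb8, Psmb9 and Psmb10, and the transactivator Nlrc5. All 10 were listed in both libraries, among 28651 genes in the iWAT library and 29958 in the iBAT library. The list was set by the genes' known roles, with earlier results of these data known.

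Primary stromal vascular fraction (SVF) cells of wild-type C57BL/6N mice aged 8 to 12 weeks per the labels were isolated from pooled inguinal white adipose tissue (iWAT) or interscapular brown adipose tissue (iBAT) and grown to 80% confluency. Some cultures were left untreated, and the others were given the growth factors FGF1, FGF2 or FGF8 (5.5 nM, 48 h). Per the labels, 10000 cells from each of 4 tagged cultures were loaded, and 1 whole-transcriptome BD Rhapsody library was made per depot. In this microwell system, barcoded beads label each poly(A) transcript with its cell and with a unique molecular identifier (UMI). The sample tags were carried by an antibody against mouse class I molecules, the protein product of H2-K1, H2-D1 and B2m. Whether cells low in class I were lost at tag calling cannot be seen in these files, which bears on the class levels and on the shares of cells without these transcripts. The files used here gave no tag per cell, so untreated and FGF-treated cells were pooled in every value and no treatment was compared.

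The filters kept 29744 iWAT cells with a median of 16204 UMIs and 28215 iBAT cells with a median of 27235 UMIs. The libraries shared 8 barcode names. Levels are given as CPM, the UMIs of a gene per 1000000 UMIs summed over the cells named. Xist, transcribed from the inactive X chromosome, was at 345 CPM in iWAT and at 0.0505 CPM in iBAT, while the Y-linked Ddx3y was at 1.1998 and 81.9 CPM. Sex, culture and library therefore cannot be told apart from depot, and with 1 library per depot no test was possible and no difference had a replicate check. All intervals are 95% intervals of counting error only. Levels were not divided by transcript length.

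Cells were sorted into classes by at least 5 detected markers of a class. Pdgfra-positive cells, which hold a UMI of the stromal receptor gene Pdgfra and met no other class, made up 16806 iWAT cells (56.5%) and 25277 iBAT cells (89.6%). In them Pdgfra, Col1a1, Col3a1 and Dcn exceeded 10 CPM in both libraries, and Lum, the other stromal marker, was at 14.0 in iWAT and 3.99 in iBAT. A Pdgfra UMI was also found in 13.9% of the epithelial-like cells of iWAT (median 11512 UMIs) and in 45.0% of the immune-like cells of iBAT (median 23801 UMIs), so the Pdgfra gate alone did not separate stromal cells from others. The epithelial-like class held 4336 iWAT cells and 0 iBAT cells, and the adipocyte-like class held 54 iBAT cells and 0 iWAT cells. Smaller classes were immune-like (160 iWAT and 249 iBAT cells), Schwann-like (53 and 618 cells), and, in iBAT, endothelial-like (213 cells), skeletal muscle-like (283 cells) and mural-like (103 cells). Classes under 50 cells were not compared, and 8311 iWAT and 1405 iBAT cells met no class.

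Class I molecules display short peptides from proteins made inside the cell to CD8 T cells, and nearly all nucleated cells carry them. The proteasome cuts proteins into peptides, and interferon replaces its constitutive catalytic subunits Psmb5, Psmb6 and Psmb7 with Psmb8, Psmb9 and Psmb10. Tap1 and Tap2 together carry peptides into the endoplasmic reticulum, where Tapbp (tapasin) holds the transporter beside a heavy chain and B2m until a peptide is bound. Nlrc5 acts on the promoters of many of these genes, and interferon raises most of the pathway.

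In GRCm39, H2-K1 (chr17:34214987-34219321, minus strand), H2-D1 (chr17:35481691-35486475, plus strand), Tapbp (chr17:34134873-34148267, plus strand), Tap1 (chr17:34405996-34416199, plus strand), Tap2 (chr17:34422501-34435829, plus strand), Psmb8 (chr17:34416690-34420428, plus strand) and Psmb9 (chr17:34400960-34406738, minus strand) lie in the H2 complex. B2m (chr2:121977957-121983594, plus strand), Psmb10 (chr8:106662362-106665077, minus strand) and Nlrc5 (chr8:95160984-95253900, plus strand) lie elsewhere. Reads of near-identical genes can be split or lost in counting, so 75-base words of the last 500 bases of each transcript were compared with all other genes. Of these words, 7.39% were shared for H2-K1 with other H2 genes and 3 predicted genes (Gm65065, Gm66221 and Gm8815), 2.18% for H2-D1 with Q-region genes and 1.39% for Tapbp with Zbtb22, and no word was shared for the other members. How reads that match several loci were treated is not given in the sources used here, and values of H2-K1 and H2-D1 are uncertain to that extent. The same holds for the genes that share words with them, among them H2-Q4, H2-Q7 and H2-T23. These are less abundant, so reads of H2-K1 or H2-D1 counted there would weigh more.

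Promoter windows of 300 bases, from 250 before to 50 after the start, were read from RefSeq (GRCm38.p6) for 8 of the 10 members. Tap2 and Nlrc5 had none. Both strands were searched for an interferon-stimulated response element (ISRE, read as GAAA and GAAA with any 2 bases between), an interferon-gamma-activated sequence (GAS, TTCNNNGAA) and the CCAAT box (CCAAT). Shown are the windows of both heavy chains and B2m, whose products form the molecule. Also shown are Psmb8, which like B2m matched the ISRE or GAS letters as read here, and Tap1, which in RefSeq starts back to back with Psmb9. Capitals mark motif matches, and each window runs along the strand of its gene.
H2-K1, chr17:34000298-34000597, minus strand: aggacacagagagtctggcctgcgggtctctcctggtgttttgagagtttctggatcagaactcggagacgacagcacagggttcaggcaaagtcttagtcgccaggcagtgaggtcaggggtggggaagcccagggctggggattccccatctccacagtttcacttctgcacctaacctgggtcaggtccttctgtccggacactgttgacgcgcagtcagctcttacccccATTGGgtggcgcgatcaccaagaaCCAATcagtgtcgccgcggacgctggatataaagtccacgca
H2-D1, chr17:35262844-35263143, plus strand: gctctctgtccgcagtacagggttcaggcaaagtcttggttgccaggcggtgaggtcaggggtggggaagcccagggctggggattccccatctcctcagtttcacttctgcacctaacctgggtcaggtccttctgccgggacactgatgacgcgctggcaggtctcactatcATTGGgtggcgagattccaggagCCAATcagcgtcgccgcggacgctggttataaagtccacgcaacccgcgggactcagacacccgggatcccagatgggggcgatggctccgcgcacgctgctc
B2m, chr2:122147437-122147736, plus strand: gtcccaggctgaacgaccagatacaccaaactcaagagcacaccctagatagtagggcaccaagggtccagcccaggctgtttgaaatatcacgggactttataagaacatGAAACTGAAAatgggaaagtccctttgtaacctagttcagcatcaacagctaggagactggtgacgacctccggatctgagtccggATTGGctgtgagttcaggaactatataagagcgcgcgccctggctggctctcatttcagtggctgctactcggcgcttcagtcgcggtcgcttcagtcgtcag
Tap1, chr17:34187306-34187605, plus strand: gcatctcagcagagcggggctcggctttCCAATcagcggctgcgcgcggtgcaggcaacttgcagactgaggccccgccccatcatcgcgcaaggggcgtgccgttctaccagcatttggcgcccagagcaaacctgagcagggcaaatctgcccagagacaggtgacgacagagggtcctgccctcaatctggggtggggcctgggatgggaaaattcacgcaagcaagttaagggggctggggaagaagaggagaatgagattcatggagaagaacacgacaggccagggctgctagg
Psmb8, chr17:34197945-34198244, plus strand: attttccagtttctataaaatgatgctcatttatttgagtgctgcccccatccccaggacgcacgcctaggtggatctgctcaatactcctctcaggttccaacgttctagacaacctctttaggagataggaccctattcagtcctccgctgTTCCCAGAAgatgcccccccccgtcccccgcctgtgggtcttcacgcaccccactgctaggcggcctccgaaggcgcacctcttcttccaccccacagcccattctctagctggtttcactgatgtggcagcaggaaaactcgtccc
The ISRE letters were found in B2m, as GAAACTGAAA at position -139 from the start, and in no other member window. Variants of the letters were not searched, so a window without a match, those of the heavy chains included, may still hold such an element. They occur in 3.44% of the 32851 RefSeq windows. The GAS letters were found in Psmb8, as TTCCCAGAA at position -97, a match on either strand, and occur in 8.30% of all windows. A CCAAT box was found in 6 members, H2-K1, H2-D1, B2m, Tap1, Tapbp and Psmb9, against 37.4% of all windows, and Psmb10 had none of the motifs. The matches in Tap1 and Psmb9 are the same site in their shared bases. The RefSeq starts of Tap1 and Psmb9 lie 226 bases apart on opposite strands, and their windows share 275 bases. In the GRCm39 coordinates given above the spans of these genes overlap, so the annotations differ in their outermost starts.

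Both heavy chains and B2m were higher in the iWAT library. Over all kept cells, H2-K1 was at 303 CPM (302 to 305) in iWAT and 101 (99.8 to 101) in iBAT, a ratio of 3.02 (2.99 to 3.04). H2-D1 was at 316 against 157, a ratio of 2.00 (1.99 to 2.02), and B2m at 1207 against 839, a ratio of 1.44 (1.43 to 1.44). With the epithelial-like and immune-like cells left out, the ratio was 2.75 for H2-K1 and 1.75 for H2-D1. Over all kept cells, 4 members (H2-K1, H2-D1, Tapbp and Psmb8) were 2-fold or more higher in iWAT and 0 were 2-fold or more lower, where 4.98% of the 9081 genes at 10 CPM or more in either library were that much higher and 3.96% that much lower. In the plot of levels by depot, Nlrc5 alone lay lower in iWAT for both cell sets. The share of all genes with a ratio above 1 was not computed, so the direction of the other members has no such reference.

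**Figure D1:**
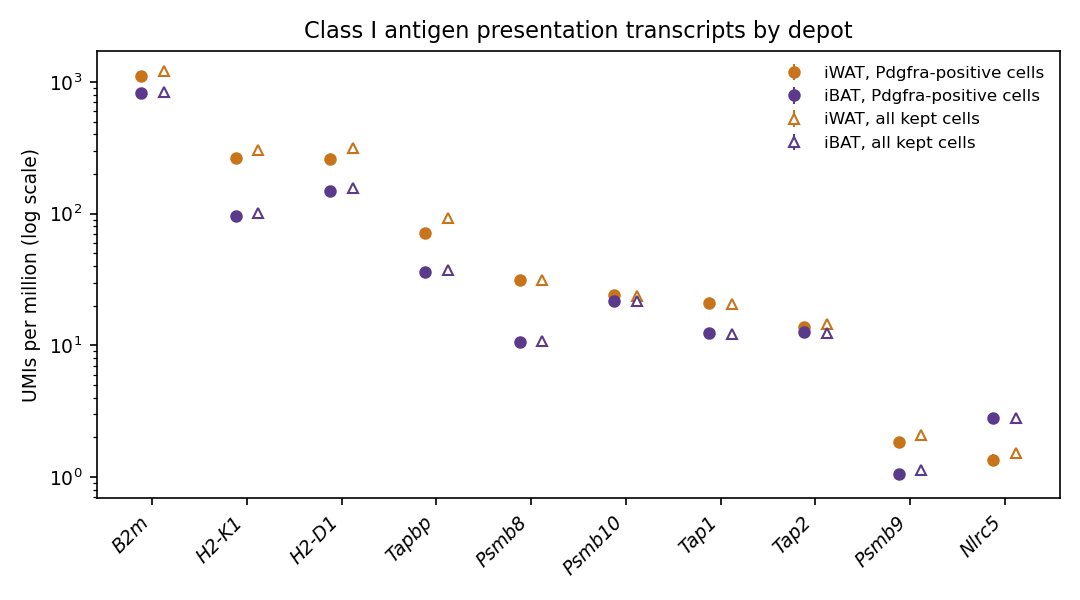
Levels of the 10 members in CPM (log axis) in Pdgfra-positive cells (filled circles) and all kept cells (open triangles) of the iWAT (orange) and iBAT (purple) libraries, with 95% counting intervals that are mostly narrower than the symbols. Nlrc5 is the member with the iBAT symbols above the iWAT symbols, and Psmb10 and Tap2 lie closest between depots.

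Within Pdgfra-positive cells, which leave out the epithelial-like cells found in iWAT, the differences were smaller for most members. H2-K1 was at 264 CPM (262 to 266) in iWAT and 95.9 (95.2 to 96.6) in iBAT, a ratio of 2.76 (2.73 to 2.78). H2-D1 was at 259 (257 to 261) and 148 (147 to 149), a ratio of 1.75. B2m was at 1108 (1104 to 1111) and 823 (820 to 825), a ratio of 1.35. All 10 epithelial markers were detected in the Pdgfra-positive cells of both libraries, none at 10 CPM, with a summed level of 20.2 CPM in iWAT and 1.09 in iBAT, and the 10 immune markers summed to 17.3 and 21.4. Their part in the ratios was not tested. The heavy chains differed unequally, and H2-K1 made up 50.5% (50.3 to 50.8) of the summed H2-K1 and H2-D1 UMIs in iWAT and 39.4% (39.1 to 39.6) in iBAT.

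Of the loading members, Tapbp differed most between depots, at 70.9 CPM (70.0 to 71.9) in iWAT and 36.3 (35.9 to 36.8) in iBAT Pdgfra-positive cells, a ratio of 1.95 (1.92 to 1.99). Tap1 was at 20.9 (20.4 to 21.4) and 12.4 (12.2 to 12.7), a ratio of 1.68. Tap2, its partner in the transporter, was at 13.8 (13.4 to 14.2) and 12.6 (12.3 to 12.8), a ratio of 1.10 (1.06 to 1.14). The transporter subunits therefore did not differ to the same degree between depots.

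Psmb8 had the highest depot ratio of the members in Pdgfra-positive cells, with 31.3 CPM (30.7 to 31.9) in iWAT and 10.6 (10.4 to 10.8) in iBAT, a ratio of 2.95 (2.86 to 3.04). The other immunoproteasome subunits differed less. Psmb10 was at 24.05 (23.5 to 24.6) and 21.7 (21.3 to 22.03), a ratio of 1.11, and Psmb9 was at 1.84 (1.69 to 2.00) and 1.06 (0.982 to 1.13), a ratio of 1.74 (1.56 to 1.94). The constitutive partners were nearly equal, with ratios of 1.04 for Psmb5, 1.08 for Psmb6 and 1.02 for Psmb7.

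Nlrc5, the transactivator, had the opposite order. It was at 1.35 CPM (1.23 to 1.49) in iWAT and 2.81 (2.69 to 2.93) in iBAT Pdgfra-positive cells, a ratio of 0.483 (0.434 to 0.536). It was detected in few cells, with a UMI in 2.27% of the iWAT cells and 6.88% of the deeper iBAT cells. Counting 2-fold differences in Pdgfra-positive cells, H2-K1 and Psmb8 were higher in iWAT (4.31% of 8961 genes at 10 CPM or more) and Nlrc5, itself under that level in both libraries, was lower (3.69%). The median log2 ratio was 0.78 over the 8 members at 10 CPM or more and -0.05 over all such genes.

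Other genes of the pathway were taken from fixed lists. Of 15 other class I heavy chain genes, 6 reached 10 CPM in Pdgfra-positive cells, and 2 were 2-fold or more higher in iWAT (4.31% of 8961 genes). These were H2-Q7 (11.9 against 1.16 CPM), which reached 10 CPM in iWAT alone, and H2-T23 (28.5 against 12.8). H2-T22 was at a ratio of 1.82 and H2-M3 at 1.60. None of 9 measured genes for peptide trimming and loading reached 2-fold, with ratios of 1.65 for the chaperone Hspa5, 1.41 for the peptide-trimming protease Erap1 and for calnexin (Canx), and 1.33 for calreticulin (Calr). Of the interferon pathway's transcription factors, Irf9 was at a ratio of 2.44 and Stat2 at 2.40, the median log2 ratio over the 18 measured transcription factors and receptors was -0.08, and the receptor-associated kinase Jak2 was at 0.705. Among class II genes, 1 of 7 reached the minimum, H2-Ab1, and in iWAT alone, at 22.8 CPM in iWAT and 2.91 in iBAT.

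Most interferon-stimulated genes measured were also higher in iWAT. In Pdgfra-positive cells Isg15, a ubiquitin-like modifier, was at 185 CPM in iWAT and 13.5 in iBAT, and Ifit3, an antiviral RNA-response protein, was at 26.8 and 10.4. Of 24 other interferon-stimulated genes, 17 were measured, at 10 CPM or more in either library. Of these, 14 were 2-fold or more higher in iWAT (4.31% of 8961 genes), led by Ifi44 (40.5 against 1.87 CPM), Bst2 (177 against 14.5), Usp18 (26.4 against 2.29) and Oasl2 (88.9 against 7.93). Ifi44, Usp18 and Oasl2 reached 10 CPM in iWAT alone, so the filter kept them through the library where they are high. The part of interferon-stimulated genes in the depot ratios of the members was not tested as a cause. The ratios were recomputed in bins of the sum of Isg15 and Ifit3 UMIs. Isg15 exceeded Ifit3 by more in iWAT than in iBAT, and the genes were not matched singly.

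For this, cells were thinned to 10000 UMIs each and binned by the sum of Isg15 and Ifit3 UMIs. The highest bin, 10 or more, has no upper limit, so sums within it may differ between libraries. In iWAT, 15123 Pdgfra-positive cells were deep enough, and 3720 of them (24.6%) held none of these UMIs. In iBAT all 25277 cells were deep enough, and 22593 (89.4%) held none. In cells with 0 such UMIs, H2-K1 was at 238 CPM in iWAT and 92.2 in iBAT, a ratio of 2.58 (2.52 to 2.65). Psmb8 was at 28.4 and 9.28, a ratio of 3.06 (2.83 to 3.29), and H2-D1 at 241 and 142, a ratio of 1.70. Tapbp had a ratio of 1.74, Tap1 of 1.53, B2m of 1.25, Tap2 of 1.15 and Psmb10 of 1.01. For Psmb9 the interval of the ratio (0.862 to 1.72) held 1, and Nlrc5 stayed lower in iWAT at a ratio of 0.502 (0.370 to 0.669). Here 2 members were 2-fold or more higher in iWAT, against 4.4% of 8992 genes, with Psmb8 at 10 CPM in iWAT alone. These cells did not lack other interferon-stimulated transcripts: 12 of 15 measured genes of that list were still 2-fold or more higher in iWAT, with Bst2 at 135 CPM in iWAT and 10.97 in iBAT.

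At higher Isg15 and Ifit3 counts the libraries came closer for H2-K1, H2-D1, B2m, Tapbp and Psmb8, but not for Tap1, Tap2, Psmb10 and Nlrc5. At 10 or more UMIs (246 iWAT and 111 iBAT cells) B2m was at 1574 CPM in iWAT and 1598 in iBAT, a ratio of 0.985 (0.931 to 1.04). Tapbp was at 146 and 131, and Psmb8 at 68.7 and 80.2, with intervals of the ratio that held 1. Both heavy chains remained higher in iWAT, H2-K1 at 416 against 259, a ratio of 1.61 (1.41 to 1.84), and H2-D1 at 398 against 319, a ratio of 1.25 (1.11 to 1.41). Tap1 was lower in iWAT here, 76.0 against 123, a ratio of 0.616 (0.491 to 0.773), and so was Psmb10, 54.5 against 73.9, a ratio of 0.737 (0.556 to 0.983). Tap2 was at a ratio of 0.724 (0.475 to 1.12) and Psmb9 at 1.11 (0.532 to 2.47), with intervals that held 1. Nlrc5 had a ratio below 1 in every bin, and here was at 4.07 against 16.2, a ratio of 0.251 (0.103 to 0.573). The plot of levels by Isg15 and Ifit3 count shows that the order of the libraries changes between bins for several members.

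**Figure D2:**
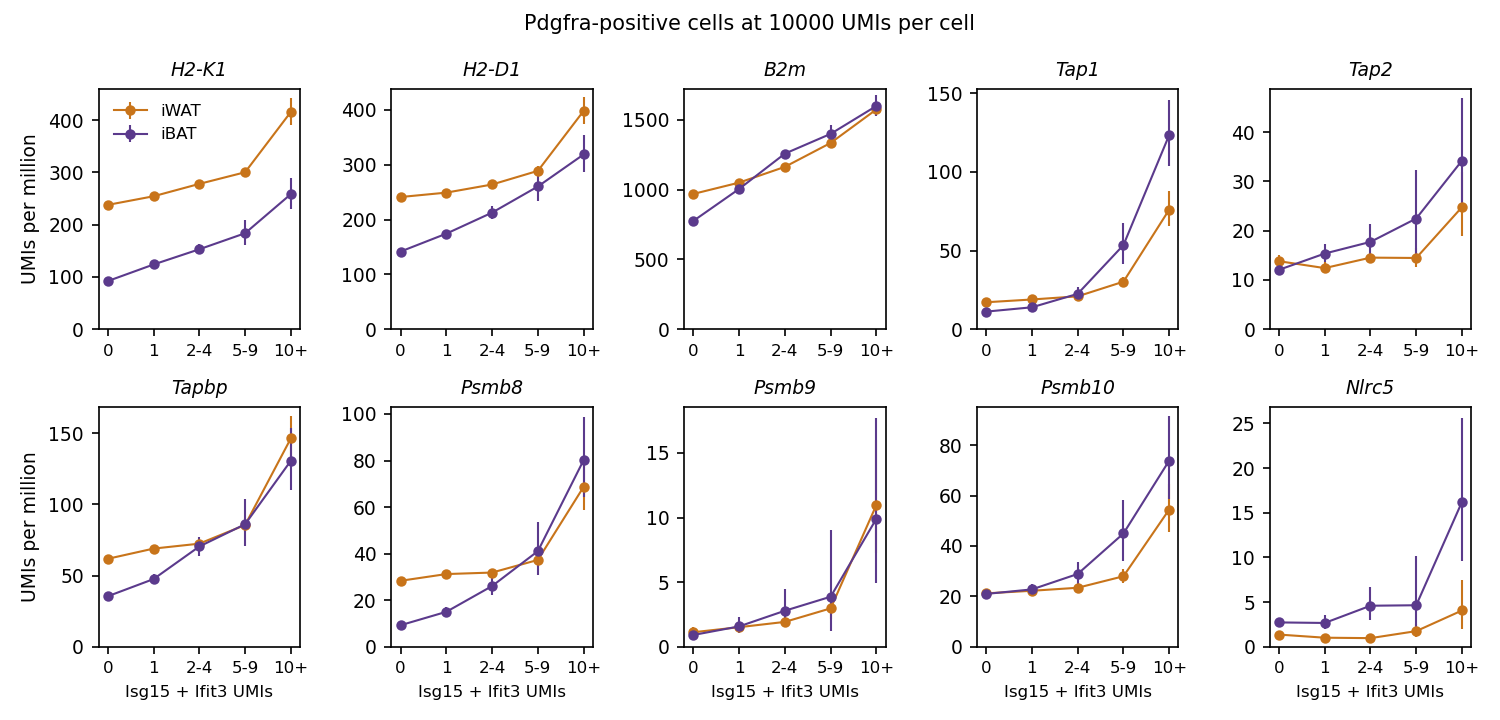
Levels of each member in CPM (linear axes from 0) in Pdgfra-positive cells of 10000 UMIs, by the Isg15 plus Ifit3 UMIs of the cell, for iWAT (orange) and iBAT (purple), with 95% counting intervals. H2-K1 goes from 238 to 416 in iWAT and from 92.2 to 259 in iBAT between the lowest and highest bins, and Tap1 from 17.2 to 76.0 and from 11.2 to 123.

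Within each library, the members were also compared between cells with 5 or more Isg15 and Ifit3 UMIs and cells with none. Without tags, the mix of untreated and FGF-treated cells in each group is not known and may differ. In iBAT (240 against 22593 cells) 9 members were 2-fold or more higher in the former, 8 of them at 10 CPM or more in either group, where 2.19% of 8947 genes were. Psmb8 and Nlrc5 reached 10 CPM in the higher group alone, so the filter kept them through the group where they are high, Nlrc5 at exactly 10 CPM. Tap1 led with a ratio of 7.66 (6.61 to 8.83), followed by Psmb9, under 10 CPM, at 7.28 (4.08 to 12.1) and Psmb8 at 6.37 (5.34 to 7.56). Nlrc5 was at 3.66, Tapbp at 3.00, Psmb10 at 2.78, H2-K1 at 2.37, Tap2 at 2.31, H2-D1 at 2.03 and B2m at 1.92 (1.86 to 1.99). With 2 or more UMIs as the gate, 5 members passed 2-fold in iBAT, 3 of them at 10 CPM or more (1.42% of 8850 genes), Psmb8 in the higher group alone.

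In iWAT (1725 against 3720 cells) the same comparison gave lower ratios. Psmb9 was at 3.65 (2.46 to 5.47) and Tap1 at 2.14 (1.92 to 2.40), and these 2 members were 2-fold or more higher. Of the 8 members at 10 CPM or more 1 was, Tap1, against 0.597% of 8717 genes. Tapbp and Nlrc5 were at 1.52, Psmb10 at 1.498, Psmb8 at 1.47, B2m at 1.41, H2-K1 at 1.33, H2-D1 at 1.26 and Tap2 at 1.15, with intervals that held 1 for Tap2 and Nlrc5. The Nlrc5 ratio was 0.894 at 2 or more UMIs and 0.888 without cycling cells, the latter from 5 UMIs against 7. At 10 or more UMIs 6 members passed 2-fold in iWAT, 5 of them at 10 CPM or more, Psmb9 in the higher group alone (1.71% of 8836 genes), with Tap1 at 4.43 (3.75 to 5.22). At 2 or more UMIs 1 did, Psmb9, and 0 of the 8 members at 10 CPM or more (0.138% of 8665 genes), with Tap1 at 1.43 (1.31 to 1.57). Whether the ratios differ between libraries was not tested, and the reference cells differed, since those of iWAT held 135 CPM of Bst2 against 10.97 in iBAT.

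Among genes beside the members in the same comparison, the libraries gave different counts. In iBAT, 4 of 6 measured other heavy chain genes were 2-fold or more higher at 5 or more UMIs (2.19% of 8947 genes). These were H2-T23 (ratio 4.28), H2-Q4 (3.91), H2-T22 (3.79) and H2-M3 (2.02). In iWAT 0 of 7 were (0.597% of 8717 genes), with H2-T23 at 1.68. Stat2 was at a ratio of 6.03 in iBAT and 1.83 in iWAT. The proteasome activator gene Psme2 was at 1.99 and 1.40. The share of cells with a UMI of a cycling gene was lower in the higher bins, from 86.3% to 76.4% in iWAT and from 84.1% to 72.1% in iBAT between the lowest and highest bins, and its part was not tested.

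The mix of constitutive and immunoproteasome subunits was described as the share of Psmb8, Psmb9 or Psmb10 in the UMIs of each subunit and the partner it replaces. Without thinning, Psmb8 made up 24.6% (24.2 to 25.02) of the Psmb8 and Psmb5 UMIs in iWAT Pdgfra-positive cells and 10.3% (10.1 to 10.5) in iBAT. Across the bins it went from 23.3% to 41.0% (36.2 to 45.9) in iWAT and from 9.20% to 50% (42.4 to 57.6) in iBAT. The Psmb9 share of its pair was 1.60% and 1.37% in the lowest bins of iWAT and iBAT and 12.7% and 11.7% in the highest, and the Psmb10 share was 12.8% and 13.3% against 30.04% and 37.8%. Psmb5 itself was at 93.2 to 99.8 CPM over the iWAT bins and 80.2 to 91.7 over the iBAT bins. Psmb5 thus varied little beside Psmb8, and in the lowest bin the libraries were close in their Psmb9 and Psmb10 shares but not in their Psmb8 shares. Of 75-base words at the end of Psmb5, 16.1% were shared with other genes.

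**Figure D3:**
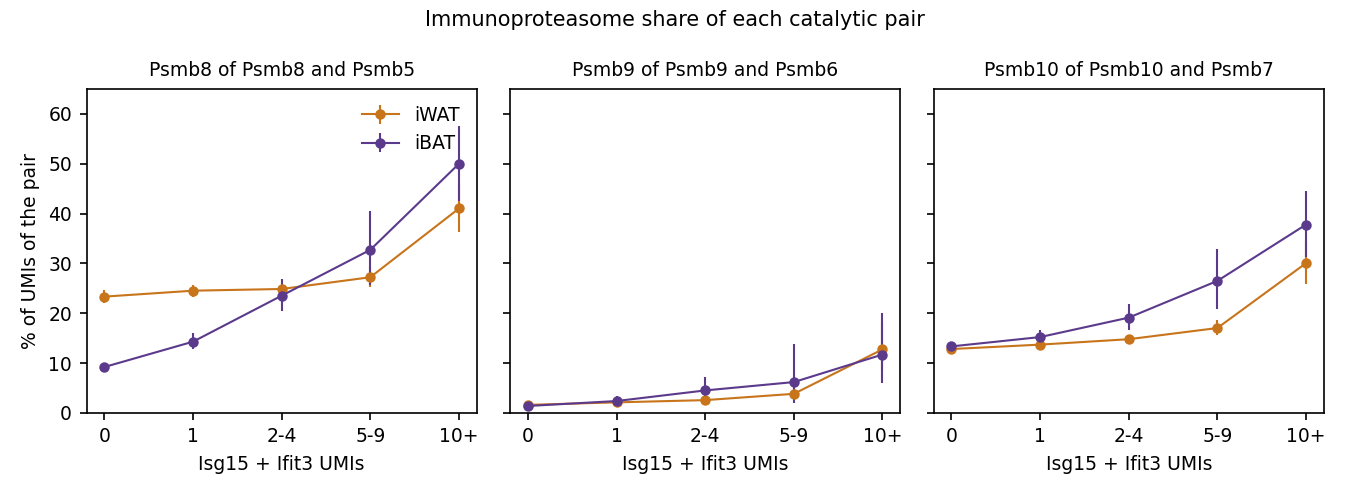
Share (%) of the immunoproteasome subunit in the summed UMIs of each catalytic pair in Pdgfra-positive cells, by Isg15 plus Ifit3 UMIs of the cell, for iWAT (orange) and iBAT (purple), with 95% exact binomial intervals. Psmb8 starts at 23.3% in iWAT and 9.20% in iBAT and reaches 41.0% and 50%.

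Counts of these transcripts per cell covered a wide range. In cells of 10000 UMIs with no Isg15 or Ifit3 UMI, the sum over the 10 members had a median of 15 UMIs in iWAT (5th to 95th percentile 6 to 30) and 10 in iBAT (4 to 23). In cells with 10 or more it was 25.5 (13 to 48) and 24 (12 to 46). The distributions of the lowest and highest bins overlapped in both libraries, and those of the libraries overlapped in each bin. Counting error at this depth is part of the spread and the overlap, and it was not separated from differences between cells.

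**Figure D4:**
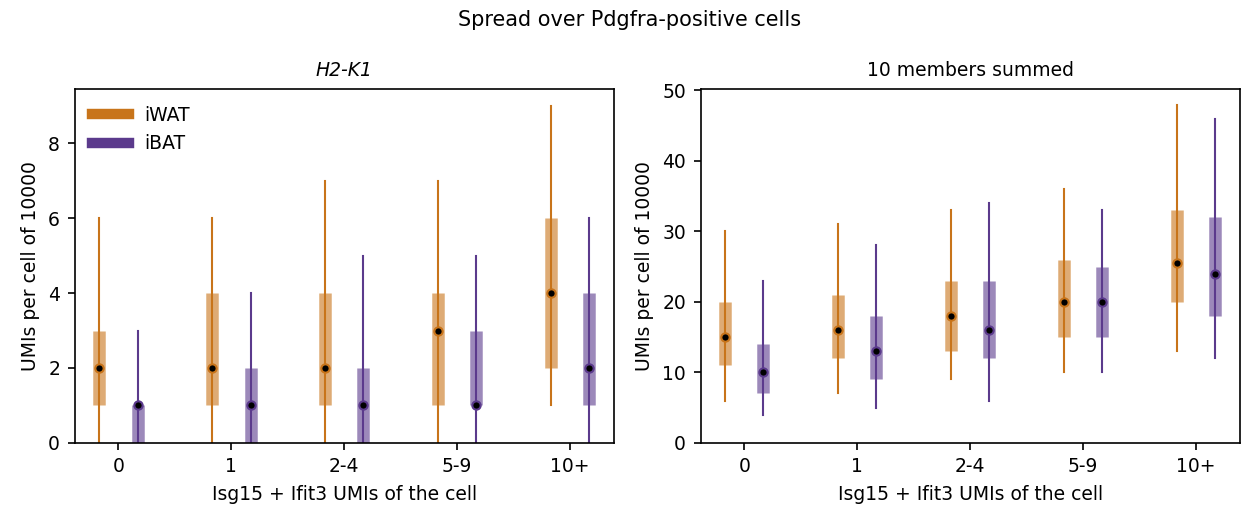
UMIs per cell of 10000 UMIs in Pdgfra-positive cells for H2-K1 (left) and the 10 members summed (right), by Isg15 plus Ifit3 UMIs of the cell, for iWAT (orange) and iBAT (purple). Dots are medians, thick bars the 25th to 75th percentile and thin lines the 5th to 95th percentile, and the summed median goes from 15 to 25.5 in iWAT and from 10 to 24 in iBAT.

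Nearly every cell held a B2m UMI. At 10000 UMIs, B2m was at 0 in 0.145% of the iWAT and 0.400% of the iBAT Pdgfra-positive cells. H2-K1 was at 0 in 12.7% (12.1 to 13.2) of the iWAT and 46.3% (45.7 to 46.9) of the iBAT cells, and at full depth 94.4% and 80.6% of the cells held an H2-K1 UMI. Both heavy chains were at 0 in 2.03% (1.81 to 2.27) and 16.8% (16.3 to 17.3). A count of 0 at this depth does not show that a cell lacks the transcript.

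Immune-like cells carried more class I transcripts than Pdgfra-positive cells of their own library. In iWAT 9 members were 2-fold or more higher (14.1% of 9546 genes), all but Tap2 at 1.81 (1.34 to 2.38), with Psmb9 and Nlrc5 at 10 CPM in the immune-like cells alone. Nlrc5 was at 17.6 against 1.35 CPM, a ratio of 13.0 (8.96 to 18.2), from 36 UMIs, and Psmb9 at 23.9 against 1.84, a ratio of 13.0 (9.50 to 17.4). H2-D1 was at 1238 against 259, Psmb8 at 120 against 31.3 and B2m at 2894 against 1108. In iBAT 6 members were, 5 of them at 10 CPM or more (10.8% of 9356 genes), all but Nlrc5, and Psmb9 in the immune-like cells alone, with Psmb9 at a ratio of 10.05, H2-D1 at 6.61, Psmb8 at 6.26, H2-K1 at 3.97, Tapbp at 3.20 and Nlrc5 at 2.88, while B2m was at 1.82 and Tap2 at 1.10. Psmb8 made up 61.0% of its pair in iWAT and 38.3% in iBAT immune-like cells. In iWAT, Isg15 was lower there than in Pdgfra-positive cells, at 66.8 against 185 CPM, and in iBAT it was close, at 11.7 against 13.5. By contrast, of 22 other interferon-stimulated genes measured in iWAT 10 were 2-fold or more higher and 1 lower.

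Between depots, the member ratios of iWAT over iBAT immune-like cells ran from 1.27 for H2-D1 to 2.46 (1.89 to 3.18) for Tap1. Of the members, Tap1, Psmb9 and Nlrc5 were 2-fold or more higher, against 8.16% of 9128 genes, with Nlrc5 at 10 CPM in iWAT alone. Nlrc5 was at 17.6 in iWAT and 8.08 in iBAT, a ratio of 2.17 (1.38 to 3.40) and the reverse of its order in Pdgfra-positive cells. The other interferon-stimulated genes were higher in iWAT here too, 21 of 22 by 2-fold or more, as were 6 of 6 measured class II genes.

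In epithelial-like cells of iWAT the interval of the ratio over Pdgfra-positive cells lay above 1 for 9 members (47.8% of 9401 genes) and below 1 for Psmb10 (42.3%). Tapbp was at 244 CPM (240 to 248) against 70.9 in Pdgfra-positive cells, a ratio of 3.44 (3.37 to 3.52), H2-D1 at 695 against 259, a ratio of 2.68, and H2-K1 at 553 against 264, a ratio of 2.09. Psmb9 was at 1.89 (1.60 to 2.23), Nlrc5 at 1.66 (1.35 to 2.04), B2m at 1.53 and Tap2 at 1.41. Psmb8 was at a ratio of 1.22 and Tap1 at 1.07, and Psmb10 was lower at 0.748 (0.699 to 0.799). These 3 members past 2-fold compare with 9.81% of 9401 genes that were that much higher. Isg15 and Ifit3 were lower than in Pdgfra-positive cells, at 128 against 185 and 16.5 against 26.8, whereas of 19 other interferon-stimulated genes measured 4 were 2-fold or more higher and 0 lower. Within this class the heavy chains hardly differed between cells with 0 and with 2 or more Isg15 and Ifit3 UMIs, at 553 and 561 for H2-K1 and 722 and 683 for H2-D1, while Tap1 was at 17.9 and 27.1. Of the other lists, Tapbpl, a tapasin-related gene, was at 2.53 and the proteasome activator Psme1 at 2.23, and Cd1d1, a lipid-presenting class I-like gene, was at 4.15.

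In iBAT, endothelial-like cells had 5 members 2-fold or more higher, 4 of them at 10 CPM or more (9.28% of 9309 genes). H2-K1 was at 465 CPM (447 to 484) against 95.9, a ratio of 4.85, and Psmb9 at 4.04, H2-D1 at 3.46, Tapbp at 3.17 and B2m at 2.22. Psmb8 was at 1.88 and Tap1 at 1.70, and the intervals for Nlrc5 (1.24), Tap2 (1.22) and Psmb10 (0.823) held 1. Isg15 was at 5.04 and Ifit3 at 2.72, both lower than in Pdgfra-positive cells.

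The 54 adipocyte-like cells of iBAT had the highest H2-K1, B2m, Tapbp and Nlrc5 levels of the iBAT classes. H2-K1 was at 720 CPM (678 to 764), a ratio of 7.51 (7.07 to 7.97) over Pdgfra-positive cells. H2-D1 was at 917 (ratio 6.21), B2m at 2436 (2.96) and Tapbp at 188 (5.17). Nlrc5 was at 18.2 (12.1 to 26.3) from 28 UMIs, a ratio of 6.48, and Psmb9 at a ratio of 5.54 from 9 UMIs. These 6 members were 2-fold or more higher, and 5 of them, all but Psmb9, were at 10 CPM or more, where 11.5% of 9304 genes were higher. Nlrc5 reached 10 CPM in the adipocyte-like cells alone. Psmb8 was at 1.47 (0.941 to 2.19), Psmb10 at 1.53, Tap1 at 1.62 and Tap2 at 1.71. Isg15 was at 3.25 and Ifit3 at 6.50, against 13.5 and 10.4 in Pdgfra-positive cells. Both rest on few UMIs in these 54 cells, and the Ifit3 difference is not settled. Of 9 other class I-like genes measured, 5 were 2-fold or more higher, against 11.5% of 9304 genes. Among them were H2-Q7 at 27.3 against 1.16 CPM, Cd1d1 at 118 against 6.95 and the iron-regulating Hfe at 39.6 against 4.42. H2-Q7 shares words with H2-K1 and H2-D1, and the part of their reads in its level was not tested. H2-Q7, Cd1d1 and Hfe reached 10 CPM in the adipocyte-like cells alone, so the filter kept them through the group where they are high. Of the markers of other classes, those of immune cells summed to 24.04 CPM in these cells (3 of 10 detected), those of endothelial cells to 7.80 (4 of 10) and mural markers to 198 (7 of 9, against 71.2 in Pdgfra-positive cells).

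Levels were also set against the adipocyte marker UMIs of each cell, the gated adipocyte-like cells included. Over Pdgfra-positive, adipocyte-like and unclassed iBAT cells of 10000 UMIs, H2-K1 was at 93.6 CPM in 24446 cells with no UMI of the 8 adipocyte markers, 114 with 1, 183 (166 to 201) with 2 to 4, 490 (425 to 563) with 5 to 19 and 916 (822 to 1017) in 38 cells with 20 or more. B2m went from 799 to 2729 and Tapbp from 37.0 to 234 over the same bins, and Psmb10 from 21.5 to 23.7 (10.8 to 44.96). Isg15 and Ifit3 had no steady order over these bins. Isg15 was at 13.7, 12.7, 23.6 (17.7 to 30.8), 12.2 and 0 CPM. Ifit3 was at 10.5, 7.97, 18.3, 29.3 (15.1 to 51.1) and 2.63 CPM, the last from 1 UMI. In iWAT under 10 cells lay in each bin above 2 to 4 marker UMIs, and H2-K1 was at 271, 273 and 288 in the lower bins.

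Schwann-like and skeletal muscle-like cells of iBAT had members that were lower than in Pdgfra-positive cells. In Schwann-like cells 4 were 2-fold or more lower, 3 of them at 10 CPM or more, in the Pdgfra-positive cells alone (8.66% of 9229 genes), Psmb9 at a ratio of 0.247 from 3 UMIs, Psmb8 at 0.312, Tap1 at 0.385 and Tap2 at 0.450. H2-K1 was at 0.583 (0.539 to 0.630), while H2-D1 was higher at 1.13 (1.08 to 1.18) and B2m at 1.5002 (1.48 to 1.53). H2-K1 made up 25.2% of their heavy chain UMIs. In skeletal muscle-like cells 6 members were 2-fold or more lower, 5 of them at 10 CPM or more, Tap1 and Psmb8 in the Pdgfra-positive cells alone (13.8% of 9396 genes): Tap1 at 0.333, Tapbp at 0.368, Psmb8 at 0.375, Nlrc5 at 0.397 from 7 UMIs, H2-D1 at 0.453 and B2m at 0.490. Tap2 was the exception at 1.39 (1.14 to 1.68). At 10000 UMIs, B2m was at 0 in 12.0% (8.47 to 16.4) of the muscle-like cells and both heavy chains were at 0 in 43.8% (38.0 to 49.8), against 0.400% and 16.8% of Pdgfra-positive cells. In mural-like cells 0 members passed 2-fold in either direction, against 5.95% of 8939 genes, and the ratios ran from 0.634 for Nlrc5 to 1.31 for H2-K1.

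The 53 Schwann-like cells of iWAT differed from those of iBAT. B2m was at 3447 CPM (3289 to 3611), the highest B2m level of any class, at a ratio of 3.11 over Pdgfra-positive cells of iWAT, with H2-D1 at 2.69 and H2-K1 at 1.00 (0.843 to 1.19). Nlrc5, from 3 UMIs, was at 4.29 with an interval of 0.881 to 12.6, and 15% of 9415 genes were 2-fold or more higher in this small class. Over the Schwann-like cells of iBAT, 8 members were 2-fold or more higher, 6 of them at 10 CPM or more, Tap1 and Psmb8 in iWAT alone (6.55% of 9205 genes), with H2-D1 at a ratio of 4.19 (3.74 to 4.70), Tap1 at 5.26 (2.64 to 9.75) and Psmb8 at 7.61 (3.72 to 14.6), but also with Psmb9 and Nlrc5 from 1 and 3 UMIs in iWAT, whose intervals held 1. Ifit3 was at 248 CPM in the iWAT and 10.97 in the iBAT Schwann-like cells. The plot of class ratios sets these profiles side by side.

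**Figure D5:**
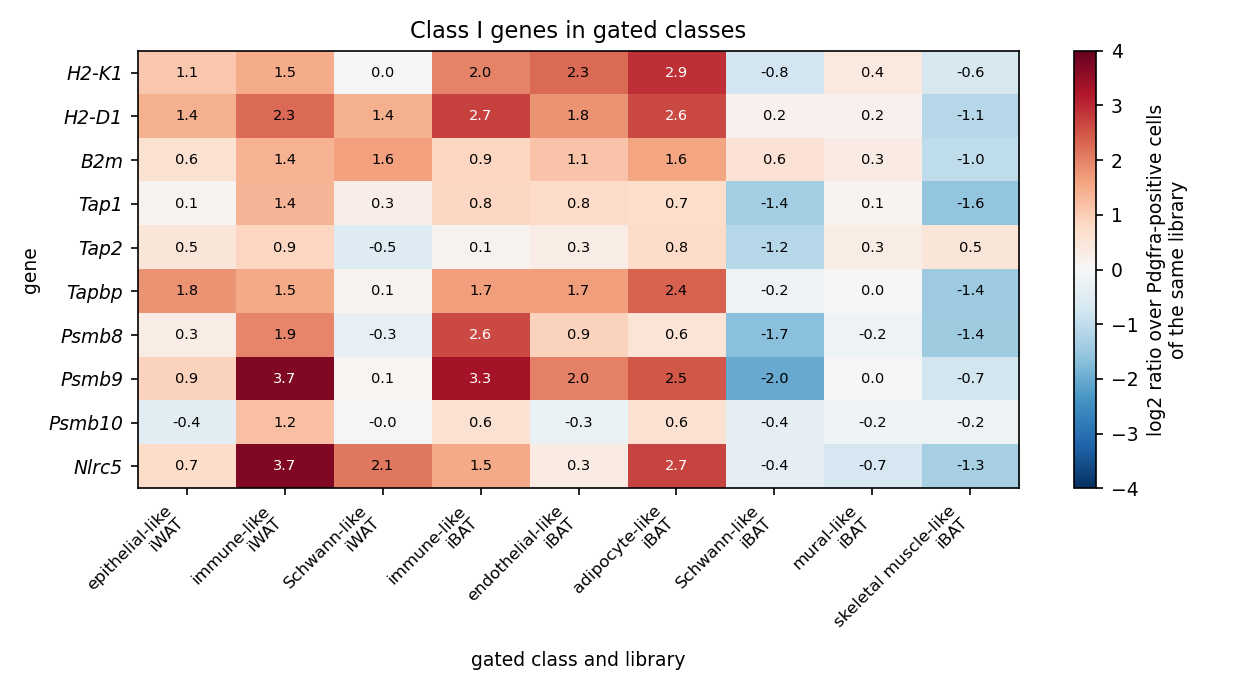
Log2 ratio of each member (rows) in a class over Pdgfra-positive cells of the same library (columns), with red for higher and blue for lower values. Immune-like and adipocyte-like columns hold the highest ratios, while Schwann-like and skeletal muscle-like cells of iBAT are mostly blue.

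Members were also compared between cells with and without a UMI of a cycling gene. In iBAT Pdgfra-positive cells the interval of the ratio, cycling over not cycling, lay below 1 for 8 members (38.5% of 8836 genes, with 35.5% above 1), with Tapbp at 0.679 (0.648 to 0.713), H2-K1 at 0.711 (0.690 to 0.733) and B2m at 0.815. In iWAT it lay below 1 for 5 members (27.3% of 8693 genes) and above 1 for Psmb8 (36.4%), with Tapbp at 0.766, B2m at 0.806 and H2-K1 at 0.817. No member differed by 2-fold in either library, against 3.26% of genes in iWAT and 3.78% in iBAT.

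Across Pdgfra-positive cells of 10000 UMIs, the members varied together weakly. H2-D1 and B2m had a Pearson r of 0.220 over 15123 iWAT cells and 0.299 over 25277 iBAT cells, and H2-K1 and B2m 0.206 and 0.276. Other genes, 6021 in number, were ranked by the smaller of their iWAT and iBAT correlations with the summed members. Igfbp7, a secreted IGF-binding protein, came first (0.353 in iWAT and 0.401 in iBAT). It was followed by Gabarap (0.329 and 0.303), Psap (0.294 and 0.290) and Npc2 (0.295 and 0.283), which act in autophagy or the lysosome. Itm2b, Serf2, App, Lamp1, Lgals3bp and mt-Co3 came next, and the order within 1 library differs. The cells of a correlation share 1 library, and abundant genes have higher correlations in sparse counts.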

How the data were processed

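The authors deposited raw UMI counts per gene and cell, 1 matrix per depot, without normalization. Per the published methods the reads were processed on a commercial cloud pipeline, and the submitters' processing notes name mm39 and Seurat 5.0.0. Pipeline version, strand use and treatment of reads matching several loci are not given in the sources used here. The published methods name vehicle, FGF1 and FGF2 only, where the labels add FGF8, and give another age range, which was not resolved.

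Cells with more than 200 and fewer than 7500 genes and under 30% mitochondrial UMIs were kept, as in the published methods (99.3% of 29962 iWAT and 98.5% of 28636 iBAT barcodes, with 503611913 and 815235820 UMIs before filtering). Classes needed 5 detected markers of a fixed list, a threshold set after the distributions of marker counts were seen. Cells that met more than 1 class (13 per library) were left out as possible doublets, and no doublet caller was run. The mural-like gate had no clear gap in marker counts.

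Counts were summed per class. Levels carry exact Poisson intervals, ratios exact conditional binomial intervals and shares Clopper-Pearson intervals, all at 95%. Bins used cells thinned at random to 10000 UMIs, which left out 5588 shallower kept cells in iWAT and 0 in iBAT. Genes counted as higher or lower at 2-fold. Shares over all genes are among those at 10 CPM or more in either group, and member counts are over all 10 members unless stated. Genes of the other lists were measured by the same filter, so some were kept only through the group where they are high. No test was made with 1 library per depot. All members could be named, and not each in every comparison. From other lists up to 4 genes of largest ratio per comparison were named, besides Psmb5 to Psmb7, Isg15 and Ifit3. Bst2 at 0 Isg15 and Ifit3 UMIs and the genes named again to compare the libraries were chosen after their values were seen. The list of transcription factors and receptors is reported in part only. The members and lists were chosen with earlier results of these data known. Scripts ran in Python 3.11.15 with numpy 2.4.6, scipy 1.17.1 and pandas 2.3.3 and were tested on simulated data.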

Additional observations from a re-analysis of the deposited data

Results flagged for a closer look

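Psmb8 moved in opposite directions with cycling genes in the libraries. In iWAT it was higher in Pdgfra-positive cells with a UMI of a cycling gene, at a ratio of 1.21 (95% counting interval 1.12 to 1.31), and in iBAT it was lower, at 0.867 (0.787 to 0.957). The difference between the libraries was not tested, and each ratio rests on 1 library. In iWAT the interval lay below 1 for 27.3% and above 1 for 36.4% of all genes, and in iBAT for 38.5% and 35.5%. How many genes had opposite directions was not counted, so how unusual Psmb8 is cannot be told.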

How the results depend on the processing

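Over all kept cells, 4 members were 2-fold or more higher in iWAT, and 2 were with epithelial-like and immune-like cells left out (4.28% of all genes at 10 CPM or more). In Pdgfra-positive cells the count of 2 became 6 at 1.5-fold, 5 of them at 10 CPM or more (8.53% of all genes). In cells with 5 or more Isg15 and Ifit3 UMIs, the iWAT count of 2 became 4 at 1.5-fold (2 at 10 CPM or more, 1.59% of all genes), 6 at 10 or more UMIs (5, 1.71%), and 1, under 10 CPM, at 15000 UMIs per cell, at 2 or more UMIs, with Isg15 alone, without cycling cells, and with 2 or more Pdgfra UMIs required, a setting chosen after the data were seen. There 0.138% to 0.517% of all genes passed, Psmb9 was the member past 2-fold and Tap1 was at 1.43 to 1.95. The iBAT count of 9 became 5 at 2 or more UMIs (3 at 10 CPM or more, 1.42%). In epithelial-like cells the count of 3 became 6 at 1.5-fold in either direction (4 at 10 CPM or more, 35.5%). The other alternatives left these counts over all 10 members, and those of immune-like cells, within 1.5 times. Among members at 10 CPM or more, the iBAT count of 8 became 4 with Ifit3 alone as the gate (1.98%), and that of immune-like iBAT cells went from 5 to 8 at 1.5-fold (16.1%). Of 590 member ratios recomputed, 435 stayed within their counting interval, 155 moved outside it and 0 changed direction past 2-fold. The iWAT ratio of Nlrc5 at high Isg15 and Ifit3, 1.52 (0.965 to 2.38), was 0.894 at 2 or more UMIs. Without cycling cells it was 0.888, from 5 UMIs against 7, so its direction is not settled. The cause of these shifts was not tested. Low depth limits Psmb9 and Nlrc5 and classes under 100 cells, and a replicate library per depot would be needed to judge any depot difference. No paired analysis was possible because each depot has 1 library and no test was made.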
